A study of Mus musculus with 24 samples.

Results

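Colon tumours of the AOM-DSS mouse model were compared with normal colon mucosa of the same model across the microRNAs (miRNAs) measured by the NanoString nCounter system, which counts colour-coded probes bound to single RNA molecules. The members are the 13 libraries whose labels name AOM-DSS, 6 of tumours and 7 of normal mucosa, out of 24 libraries in the series. The other 11 libraries are 5 tumours and 6 normal mucosa samples labelled APC, from mice that the design text calls APC;CpC. AOM is the carcinogen azoxymethane, and DSS is dextran sulphate sodium, which injures the colon lining and causes colitis. The labels put AOM-DSS on tumours and normal mucosa alike, so every library of the comparison came from the same model, and no mucosa of untreated mice stands beside them. The sources used here do not give the strain, age, doses or time of sampling. The design text calls the normal tissue matched, but no label says which animal a sample came from, so p-values measure only the spread between these samples. The extraction protocol speaks of FFPE tissue, which is fixed and embedded in paraffin, and the design text of frozen tissue.

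A miRNA is a short RNA that guides a silencing complex to messenger RNAs. Pairing rests mainly on the seed, bases 2 to 8 from its 5′ end, and miRNAs with one seed share most of their possible targets. Many miRNAs are transcribed together from clusters, and others mark a tissue layer, such as the muscle-rich miR-143 and miR-145 or the epithelial miR-200 family. In the colon, loss of Apc control over Wnt signalling and Myc activity are well-known steps of tumour growth, and miR-135b targets the Apc messenger RNA.

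The mature sequences of the miRNAs the results turn on are given 5′ to 3′ from RefSeq (assembly GRCm38.p6), with the seed in capitals. The first block holds miRNAs that were higher in tumours, grouped by cluster or shared seed. miR-183, miR-96 and miR-182 lie on chromosome 6 within chr6:30165962-30169732 (minus strand), and miR-25, miR-93 and miR-106b on chromosome 5 within chr5:138165332-138165807 (minus strand). miR-17 and miR-20a lie on chromosome 14 within chr14:115043684-115044380 (plus strand). miR-17, miR-20a, miR-93 and miR-106b carry the same seed.
miR-31: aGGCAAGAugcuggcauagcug
miR-183: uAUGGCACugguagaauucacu
miR-96: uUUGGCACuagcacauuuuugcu
miR-182: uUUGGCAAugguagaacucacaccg
miR-17: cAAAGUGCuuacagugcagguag
miR-20a: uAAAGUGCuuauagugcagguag
miR-93: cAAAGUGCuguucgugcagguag
miR-106b: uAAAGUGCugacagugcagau
miR-25: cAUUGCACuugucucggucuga

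The second block holds 4 of the miRNAs that were lower in tumours, which share no seed.
miR-137: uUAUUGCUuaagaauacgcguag
miR-9: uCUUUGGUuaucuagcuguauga
miR-127: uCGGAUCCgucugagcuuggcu
miR-365: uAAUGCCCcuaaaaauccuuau

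The third block pairs miRNAs of one seed that were called in opposite directions, the higher one first. miR-99a and miR-100 differ at 1 of 22 positions, U16A, and miR-130a and miR-130b at 2 positions, U11A and A13G, counted from 1 at the 5′ end with the base of the miRNA named first given first.
miR-99a: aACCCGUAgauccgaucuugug
miR-100: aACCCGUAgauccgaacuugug
miR-125a-5p: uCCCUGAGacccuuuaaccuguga
miR-125b-5p: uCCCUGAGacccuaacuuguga
miR-130b: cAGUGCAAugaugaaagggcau
miR-130a: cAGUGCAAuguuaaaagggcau

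Tumour libraries held 166360 to 218973 counts of mouse miRNAs (median 194798), against 47235 to 329346 in normal mucosa libraries (median 303394), where normal library 7 alone lay far below the rest. Each library's background was set at the mean plus 2 SD of 33 probes for miRNAs of mouse viruses. Of 566 mouse probes, 148 to 206 lay above it in tumours and 174 to 227 in normal mucosa. Levels are given as counts per 1000000 mouse miRNA counts (CPM) after TMM scaling, and a miRNA is called measured where its median count exceeded background in at least 1 of the 2 groups, which held for 202 probes. Epithelial markers were abundant in both groups: the 5 probes of the miR-200 family made up 6.39 to 7.56% of all miRNA counts in tumours and 3.91 to 5.99% in normal mucosa. Probes of the embryonic stem cell clusters, which colon should lack, were measured in 0 of 16 cases. All tumours 3 to 6 ran on cartridge 3, and tumours 1 and 2 ran with all normal samples on cartridge 2, so calls that changed within cartridge 2 are pointed out for the miRNAs described in full.

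In edgeR's quasi-likelihood test, 96 of 563 tested miRNAs passed a Benjamini-Hochberg adjusted p of 0.05 (17.1%), 48 higher (8.53%) and 48 lower (8.53%) in tumours. The groups did not overlap in 52 miRNAs (9.24%). Calls concentrated on detected miRNAs: 75 of the 202 measured ones were called (37.1%), 31 higher (15.3%) and 44 lower (21.8%), against 21 of the 361 others (5.82%). Most shifts were modest, with a median log2 fold change of 0.73 among higher and -0.74 among lower calls, and 11 miRNAs in each direction differed by over 2-fold. The balance of the 2 directions depended on how libraries were put on one scale. Scaling to the 100 most abundant miRNAs moved the median log2 fold change of all miRNAs to 0.32, against 0.07 with TMM, and gave 109 higher and 25 lower calls (81.3% higher). Scaling to the 4 mRNA probes moved it to -0.40 and gave 10 higher and 111 lower (8.26% higher). Directions below are relative to the TMM scale, and 10 higher and 25 lower miRNAs passed under every scaling tried.

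**Figure D1:**
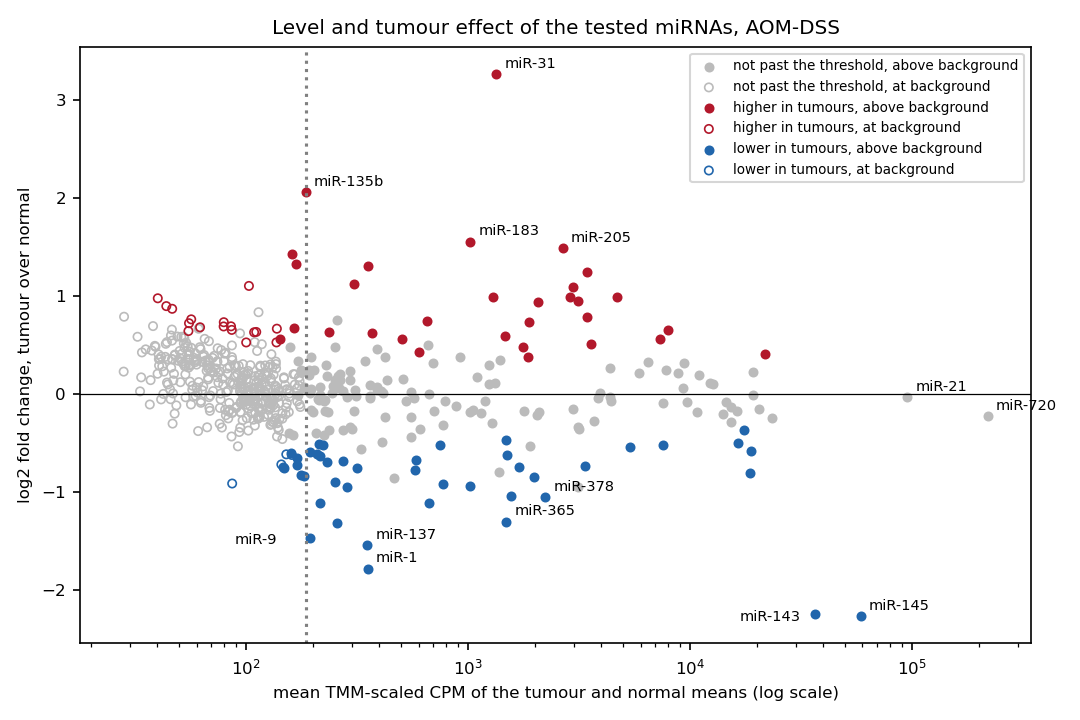
Each point is 1 tested miRNA, with its mean level in TMM-scaled CPM (log scale) on the horizontal axis and its log2 fold change, tumour over normal, on the vertical axis. Filled points are measured above the viral background, open points are not, and the dotted line is the median background; red marks the 48 higher and blue the 48 lower calls, with miR-31 at 3.27 and miR-145 at -2.26.

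miR-31, an epithelial miRNA known for its rise in colorectal cancer and inflamed bowel, showed the largest difference. Its level ranged from 1691 to 3288 CPM in tumours (median 2406), against 132 to 359 CPM in normal mucosa (median 227). The groups lay far apart, with every tumour above every normal sample. The log2 fold change was 3.27 ± 0.26 (SE), a 9.63-fold difference (edgeR adjusted p = 3.35e-10, n = 6 and 7). Levels of miR-31 in normal mucosa lay near background, which limits what can be said of the size of this fold. In bulk tissue a changed number of cells of a type and a changed amount of RNA per cell cannot be told apart, here or in the results that follow.

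miR-135b, the miRNA the series' title names, rose as well. It had 247 to 365 CPM in tumours (median 308) and 42.5 to 121 CPM in normal mucosa (median 73.3), where it was at background in 7 of 7 libraries. Counted against that background, it was at least 1.57-fold higher in tumours, with a fitted log2 fold change of 2.07 ± 0.19 (edgeR adjusted p = 2.99e-10). Its close relative miR-135a had 170 to 297 CPM in tumours (median 196) and 168 to 343 CPM in normal mucosa (median 201), with overlapping groups and a log2 fold change of -0.01 ± 0.20 (adjusted p = 0.987).

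The miR-183 cluster, a single transcription unit best known from sensory cells and raised in many carcinomas, moved as a whole: 3 of 3 members rose. Of all miRNAs 8.53% were called higher, and of measured ones 15.3%. miR-183 had 1263 to 1984 CPM in tumours (median 1494) and 339 to 757 CPM in normal mucosa (median 491), a log2 fold change of 1.56 ± 0.16 (adjusted p = 1.32e-09). miR-96 had 4109 to 5438 CPM in tumours (median 4987) and 1643 to 2564 CPM in normal mucosa (median 2051), or 1.25 ± 0.14 on the log2 scale. miR-182 had 439 to 612 CPM in tumours (median 495) and 123 to 289 CPM in normal mucosa (median 195), near background there, or 1.31 ± 0.21. In none of these 3 did the groups overlap, as in 9.24% of all tested miRNAs. All 3 calls held under every scaling, every library left out and both treatments of the cartridges.

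The miR-17-92 cluster, a Myc-induced group that promotes cell proliferation, and its copies miR-106a-363 and miR-106b-25 gave 8 higher and 0 lower calls among 11 tested probes, with a median log2 fold change of 0.95 against 0.07 over all miRNAs. Of all miRNAs 8.53% were called higher, and of measured ones 15.3%, and the groups did not overlap in 9.24% of all tested miRNAs. The probe shared by miR-106a and miR-17 had 5549 to 7148 CPM in tumours (median 6038) and 2721 to 3828 CPM in normal mucosa (median 3112). That shared by miR-20a and miR-20b had 3289 to 4614 CPM in tumours (median 3670) and 1425 to 2351 CPM in normal mucosa (median 2024). miR-25 had 3344 to 4541 CPM in tumours (median 4172) and 1742 to 2097 CPM in normal mucosa (median 1892). These 3 probes did not overlap between groups and rose by 0.99 ± 0.13, 1.00 ± 0.14 and 1.09 ± 0.12 on the log2 scale (adjusted p = 9.06e-08, 2.84e-07 and 4.48e-09). miR-93 rose by 0.99 ± 0.12, miR-19b by 0.95 ± 0.15, miR-19a by 0.79 ± 0.13 and miR-106b by 0.59 ± 0.15, again with no overlap between groups. miR-18a had 340 to 614 CPM in tumours (median 387) and 151 to 264 CPM in normal mucosa (median 173), near background there, or 1.13 ± 0.16. The 3 probes that did not pass were not above background by median, among them miR-92a, which the cluster also encodes and which had 43.9 to 75.8 CPM in tumours and 50.2 to 73.3 CPM in normal mucosa. With mRNA scaling 3 of the 8 calls remained past the threshold, the 2 shared probes and miR-25. Near-identical members, such as miR-19a and miR-19b, which differ by U11C, may share signal on their probes.

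**Figure D2:**
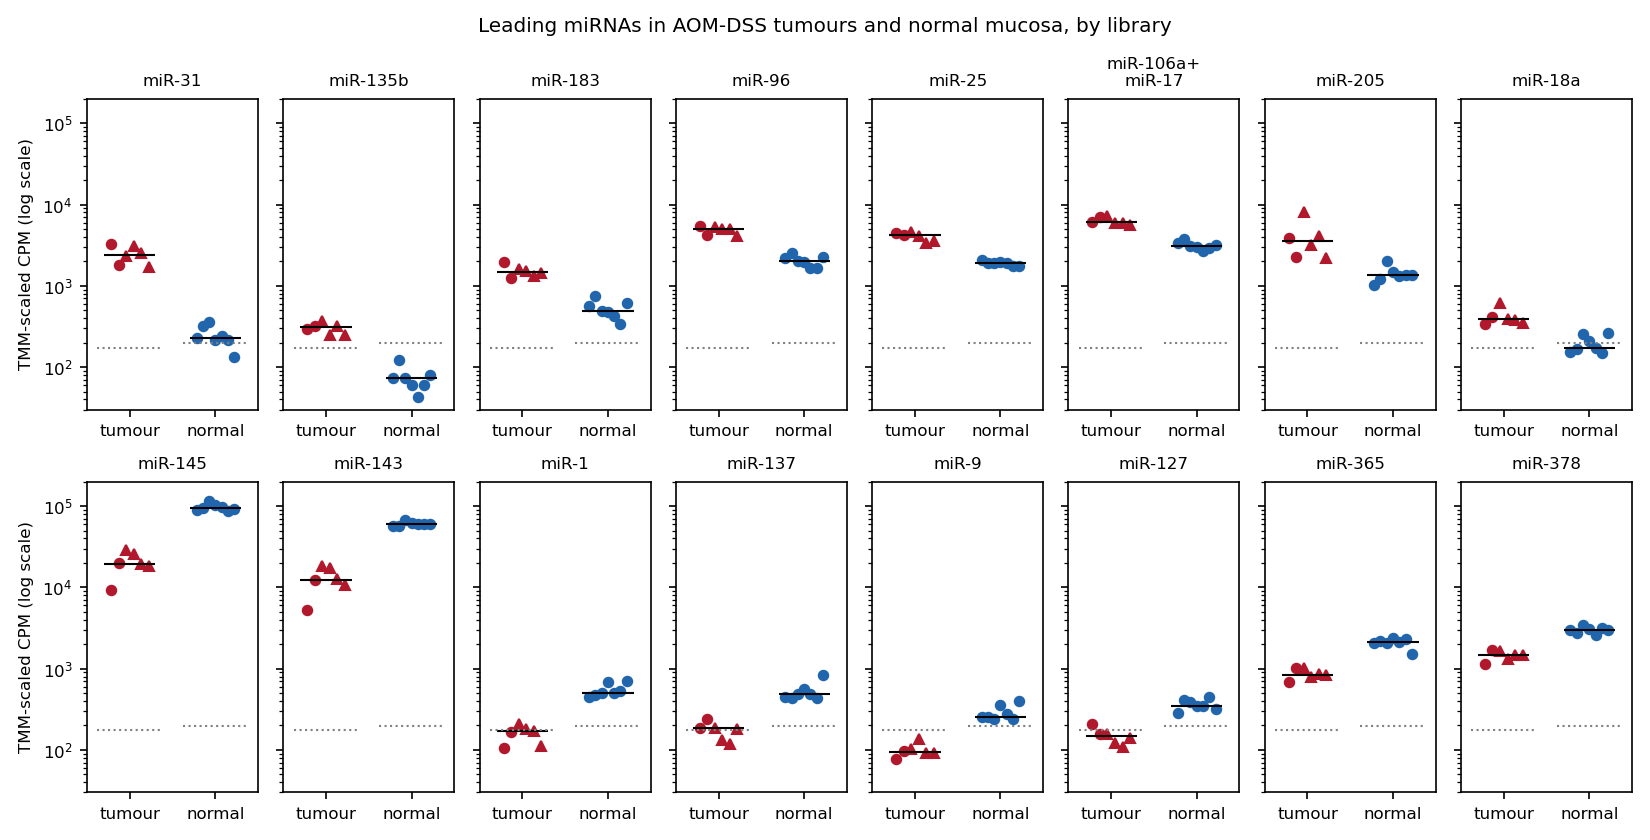
TMM-scaled CPM on a log axis for 8 miRNAs that were higher in tumours (upper row) and 8 that were lower (lower row), 1 point per library, tumours in red at the left and normal mucosa in blue at the right. Circles ran on cartridge 2 and triangles on cartridge 3, black lines are medians and dotted lines the median background of each group; miR-31 spans 1691 to 3288 CPM in tumours against 132 to 359 CPM in normal mucosa.

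Both miRNAs of squamous epithelium rose. miR-205, abundant in skin and other stratified epithelia, had 2234 to 8005 CPM in tumours (median 3524), with tumour 3 far above the rest, and 1015 to 2036 CPM in normal mucosa (median 1359). The groups did not overlap, and the log2 fold change was 1.49 ± 0.29 (adjusted p = 0.000678), or 1.17 ± 0.25 without tumour 3. miR-203, a skin differentiation miRNA, had 2364 to 3419 CPM in tumours (median 2711) and 1214 to 1668 CPM in normal mucosa (median 1454), or 0.94 ± 0.22 (adjusted p = 0.0022). With mRNA scaling neither passed (adjusted p = 0.0562 for miR-205 and 0.18 for miR-203), and miR-205 did not pass with cartridge 3 as a term (adjusted p = 0.065), although within cartridge 2 it did (1.13, adjusted p = 1.02e-05).

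Of the 5 members of the miR-200 family, which keeps cells epithelial by repressing Zeb factors, 2 rose, against 4 higher calls with scaling to the 100 most abundant miRNAs and 0 higher and 1 lower with mRNA scaling. All 5 were measured, and 8.53% of all miRNAs and 15.3% of measured ones were called higher. miR-200c had 7895 to 11926 CPM in tumours (median 9955) and 5606 to 6791 CPM in normal mucosa (median 6022), with no overlap, or 0.66 ± 0.12 on the log2 scale (adjusted p = 4.43e-05), and did not pass with mRNA scaling (0.16, adjusted p = 0.539). miR-429 had 22509 to 27674 CPM in tumours (median 24671) and 14443 to 22582 CPM in normal mucosa (median 17618), or 0.41 ± 0.12, a direction that turned to -0.08 with mRNA scaling. miR-200b (0.11), miR-141 (0.27) and miR-200a (-0.08) did not pass. The intestinal epithelial miR-194 had 13419 to 16495 CPM in tumours (median 15601) and 15780 to 26553 CPM in normal mucosa (median 19064), or -0.37 ± 0.13 (adjusted p = 0.0436), a call lost under 18 of 28 alternatives. Its cluster partner miR-192 (-0.28) and the enteroendocrine miR-375 (-0.53 ± 0.22, adjusted p = 0.112) did not pass.

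Other measured rises included miR-149, with 145 to 272 CPM in tumours (median 258) and 83.8 to 132 CPM in normal mucosa (median 89.7), where it was at background in 7 of 7 libraries, so that it was at least 1.22-fold higher in tumours. miR-149 is on the list of miRNAs reported to fall in colorectal tumours, and here it stood against that list's direction. miR-223, a neutrophil and macrophage miRNA, had 1281 to 3327 CPM in tumours (median 2464) and 929 to 1742 CPM in normal mucosa (median 1503), with overlap, or 0.74 ± 0.22 (adjusted p = 0.0199). The call on miR-223 was lost under 5 alternatives, among them mRNA scaling (0.23, adjusted p = 0.465). Tumours 1 and 2, on cartridge 2, had 3327 and 3116 CPM, against 1281 to 2863 CPM in the tumours on cartridge 3. miR-27b rose by 0.74 ± 0.14 while miR-23a, of a paralogous cluster, fell by 0.52 on the log2 scale (SE 0.11), and both missed the threshold within cartridge 2 (adjusted p = 0.115 and 0.0684). The miRNA-like probe miR-1983, which resembles a transfer RNA, had 146 to 325 CPM in tumours (median 231) and 49.1 to 158 CPM in normal mucosa (median 88.6), at background in 7 of 7 normal libraries and at least 1.17-fold higher in tumours. Of the 48 higher calls, 17 lay on probes not above background by median, such as miR-2133 (1.11 ± 0.38, adjusted p = 0.106 within cartridge 2) and miR-449b (0.74 ± 0.19), where the background limits what can be said of their size.

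The falls were led by the muscle miRNAs. miR-145, abundant in smooth muscle, had 9232 to 29043 CPM in tumours (median 19651) and 88349 to 115798 CPM in normal mucosa (median 94866). miR-143, transcribed with it, had 5340 to 18527 CPM in tumours (median 12514) and 56780 to 67854 CPM in normal mucosa (median 59981). Together they made up 3.64 ± 1.16% of miRNA counts in tumours and 14.7 ± 1.22% in normal mucosa (SD). The groups lay far apart, tumour 1 holding the lowest and tumour 3 the highest tumour values, with log2 fold changes of -2.26 ± 0.21 and -2.24 ± 0.24 (adjusted p = 5.27e-09 and 1.02e-07). miR-1, of striated and smooth muscle, had 107 to 207 CPM in tumours (median 170) and 447 to 712 CPM in normal mucosa (median 507), or -1.78 ± 0.19. miR-133a had 81.3 to 213 CPM in tumours (median 131) and 242 to 396 CPM in normal mucosa (median 289), or -1.11 ± 0.19. In neither did the groups overlap. These 4 are all the measured members of the 9 muscle probes, and miR-133b, miR-206, miR-208a, miR-208b and miR-499 were not above background by median. Of all miRNAs 8.53% were called lower, and of measured ones 21.8%. The summed level of the list was 15413 to 48530 CPM in tumours (median 32910) and 147012 to 184916 CPM in normal mucosa (median 153105). The normal samples, labelled mucosa, thus held a large level of miRNAs best known from muscle, and the part of muscle content in the other differences was not tested.

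Neuronal miRNAs moved the same way: of 13 tested probes on that list, 5 fell and 0 rose, with a median log2 fold change of -0.46, where 8.53% of all miRNAs and 21.8% of measured ones were called lower. Of the 13, 7 were measured. miR-137, a neuronal miRNA often silenced by methylation in colorectal cancer, had 119 to 238 CPM in tumours (median 184) and 433 to 844 CPM in normal mucosa (median 487), or -1.54 ± 0.20 (adjusted p = 1.15e-07). Its tumour levels lay near background. miR-9, a neural progenitor miRNA, had 77.8 to 138 CPM in tumours (median 94.9), at background in 6 of 6, and 238 to 396 CPM in normal mucosa (median 258). It was at least 1.59-fold lower in tumours (fitted log2 fold change -1.46 ± 0.20, adjusted p = 4.54e-07), and in neither miR-137 nor miR-9 did the groups overlap. miR-124, miR-129-3p and miR-218, which is also on the fibroblast list, fell by 0.60, 0.65 and 0.51 on the log2 scale, with levels near background, and within cartridge 2 miR-218 missed the threshold (adjusted p = 0.261). The summed level of the neuronal list was 2505 to 3033 CPM in tumours (median 2793) and 3590 to 4117 CPM in normal mucosa (median 3755). Its part in the other differences was not tested. With scaling to the 100 most abundant miRNAs 2 of the 5 passed.

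Of 10 fibroblast and mesenchyme probes, 5 fell and 1 rose, against 8 lower and 0 higher calls with mRNA scaling. Of the 10, 9 were measured, and 8.53% of all miRNAs and 21.8% of measured ones were called lower. miR-125b-5p, a regulator of p53 and of differentiation, had 10428 to 18126 CPM in tumours (median 13284) and 20520 to 26505 CPM in normal mucosa (median 23418), without overlap, or -0.81 ± 0.14 (adjusted p = 3.66e-05). miR-22 had 12603 to 19833 CPM in tumours (median 14497) and 20266 to 23708 CPM in normal mucosa (median 22371), or -0.58 ± 0.12, also without overlap, although within cartridge 2 it missed the threshold (adjusted p = 0.104). miR-199a-3p (-0.27) and miR-199a-5p (-0.35), typical of fibroblasts, did not pass. The summed level of the list was 33664 to 47046 CPM in tumours (median 37513) and 53700 to 63439 CPM in normal mucosa (median 59373), and its part in other differences was not tested.

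The Dlk1-Dio3 cluster, an imprinted miRNA domain on chromosome 12 that is expressed in embryo, brain and mesenchyme, gave 14 lower and 0 higher calls among 61 tested probes (8.53% of all miRNAs were called lower), although its median over all probes was -0.07 since most were near background. Of its 14 measured probes 12 fell, and 2, miR-329 (-0.04) and miR-409-5p (0.02), did not pass. miR-127 had 110 to 209 CPM in tumours (median 148) and 286 to 449 CPM in normal mucosa (median 346), with no overlap, or -1.31 ± 0.17 (adjusted p = 1.09e-07). Its tumour levels lay near background. miR-136 had 422 to 672 CPM in tumours (median 519) and 765 to 1206 CPM in normal mucosa (median 911), again without overlap, or -0.91 ± 0.15 (adjusted p = 1.25e-05). The other falls ranged from -0.50 for miR-381, which missed the threshold within cartridge 2 (adjusted p = 0.279), to -0.94 for miR-376b. Within cartridge 2, 6 probes of the cluster were called lower and 1 higher. With scaling to the 100 most abundant miRNAs 6 were called lower and 4 higher. The 14 probes called lower here stayed below 0 under that scaling, from -0.23 for miR-381 to -1.04 for miR-127, and the 4 higher calls were other probes.

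Among growth-restraining and metabolic miRNAs, miR-365 had 686 to 1015 CPM in tumours (median 841) and 1531 to 2415 CPM in normal mucosa (median 2159), or -1.30 ± 0.18 (adjusted p = 2.89e-07). Its cluster partner miR-193b on chromosome 16 also fell, by 0.62 on the log2 scale (SE 0.14), near background. miR-378, encoded in a gene of mitochondrial metabolism, had 1128 to 1702 CPM in tumours (median 1461) and 2606 to 3482 CPM in normal mucosa (median 2973), or -1.05 ± 0.16 (adjusted p = 2.9e-06). miR-195, of the miR-15/16 seed that restrains the cell cycle, had 579 to 845 CPM in tumours (median 707) and 1145 to 1517 CPM in normal mucosa (median 1324), or -0.93 ± 0.18. The groups did not overlap in miR-365, miR-378 or miR-195. The other 5 probes of the miR-15/16 seed did not pass, and miR-16 itself was at -0.01 ± 0.12. miR-30a fell by 0.84 (SE 0.13), miR-30e by 0.51 (SE 0.16), miR-139-5p by 0.77 (SE 0.15) and miR-101a, which targets Ezh2, by 1.11 on the log2 scale (SE 0.26). The call on miR-101a was lost with cartridge 3 as a term (adjusted p = 0.131). That on miR-30e was lost with the same term, without tumour 1, and with scaling to the 100 most abundant miRNAs (adjusted p = 0.23). Of the miR-29 family, which represses collagens, miR-29b and miR-29c fell by 0.50 and 0.54 on the log2 scale (SE 0.12 each), and miR-29a did not pass (-0.16 ± 0.13). With scaling to the 100 most abundant miRNAs neither miR-29b nor miR-29c passed (adjusted p = 0.129 and 0.0813). The call on miR-29b was also lost with cartridge 3 as a term.

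**Figure D3:**
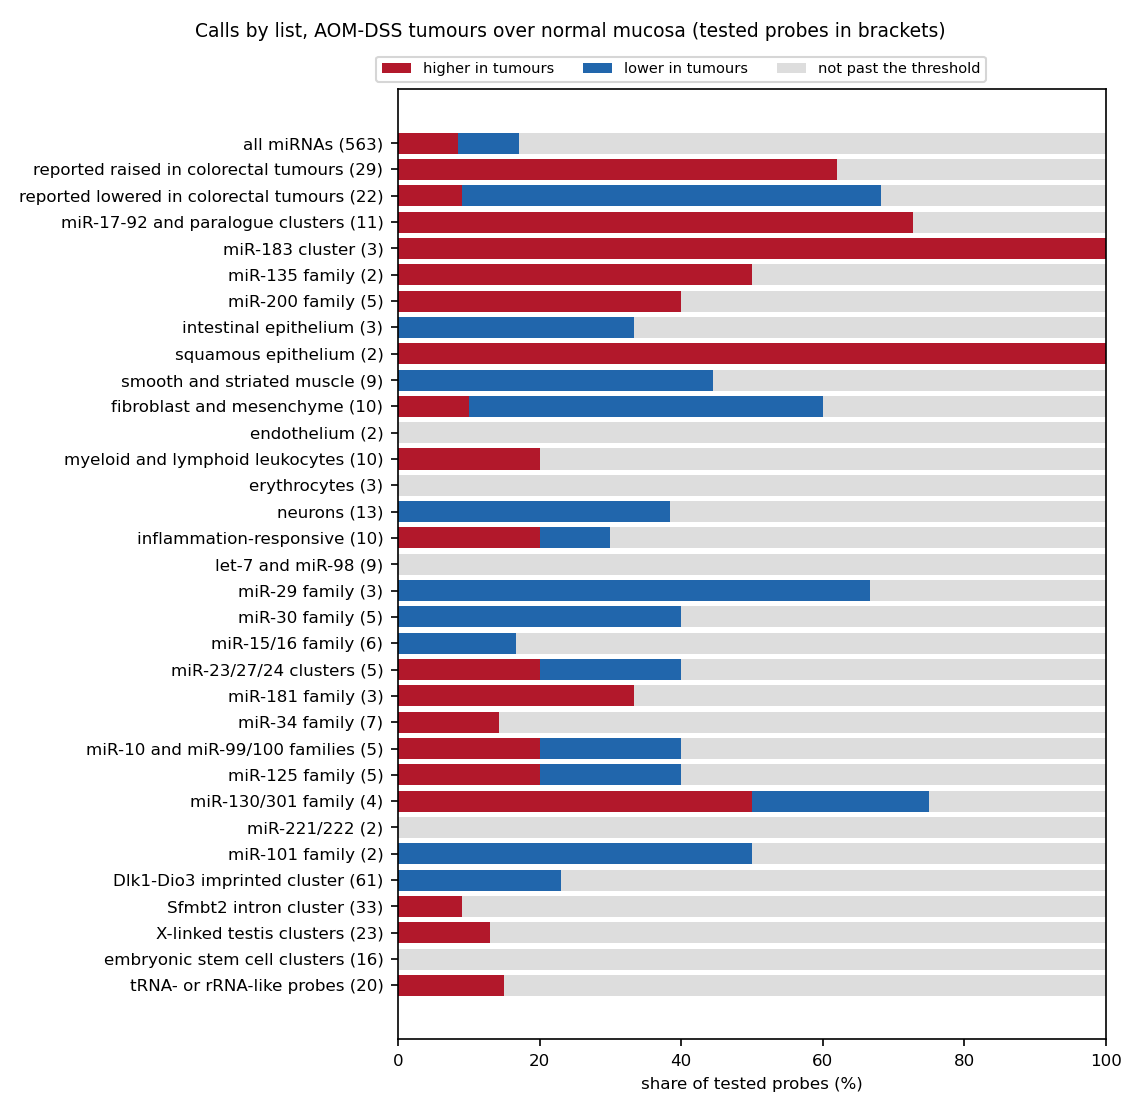
Share of tested probes of each list that were higher (red), lower (blue) or not past the threshold (grey) in AOM-DSS tumours over normal mucosa, with the number of tested probes in brackets and all 563 miRNAs at the top. The miR-183 cluster is all red at 3 of 3, and the Dlk1-Dio3 cluster has 14 of 61 probes in blue and none in red.

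Set against lists of miRNAs that the field reports as changed in colorectal tumours, the AOM-DSS tumours gave 18 higher and 0 lower calls among 29 tested probes of the raised list (median log2 fold change 0.66). Of the 29, 26 were measured, and 15.3% of all measured miRNAs were called higher. Of 22 tested probes of the lowered list, 13 were lower and 2 higher (median -0.81), the exceptions being miR-149 and miR-125a-5p. Of the 22, 20 were measured, and 21.8% of all measured miRNAs were called lower. These lists were chosen with earlier results of these data known. With mRNA scaling the raised list gave 8 higher and 3 lower calls. Members of the raised list that did not pass included miR-21, among the most abundant miRNAs in both groups, with 81582 to 112469 CPM in tumours (median 92351) and 71196 to 114040 CPM in normal mucosa (median 97915). The groups overlapped, and the log2 fold change of miR-21 was -0.03 ± 0.14 (adjusted p = 0.938). With mRNA scaling miR-21 was called lower (-0.53, adjusted p = 0.0434). Other members that did not pass were miR-155 (-0.23), miR-221 (0.21 ± 0.29), miR-34a (0.50 ± 0.20, adjusted p = 0.0881) and miR-103, which had 2401 to 2936 CPM in tumours and 3209 to 4285 CPM in normal mucosa with no overlap (adjusted p = 0.0763).

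Several families and cell-type lists showed few or no calls in the main test. Of 9 let-7 and miR-98 probes, which repress growth genes such as Lin28 and Hmga2, 0 passed in edgeR (1 at an unadjusted p under 0.05) and 0 in DESeq2 or limma-voom, with log2 fold changes from -0.24 to 0.25. Scaling to the 100 most abundant miRNAs called 2 of them higher, and mRNA scaling called 4 lower. let-7i was also called higher in edgeR with either filter that kept only miRNAs above viral background, and with viral background subtracted. It passed too in limma on the authors' scaled values. The endothelial miR-126-3p had 11768 to 14766 CPM in tumours (median 12693) and 12502 to 16862 CPM in normal mucosa (median 15251), or -0.20 ± 0.12 (adjusted p = 0.293). Of 10 leukocyte probes 2 rose, miR-223 and the probe shared by miR-181b and miR-181d, and the pan-leukocyte miR-142-3p was at -0.07 ± 0.23. Of the 10, 9 were measured, and 8.53% of all miRNAs and 15.3% of measured ones were called higher. With mRNA scaling the list gave 0 higher and 4 lower calls, and the shared miR-181 probe did not pass (adjusted p = 0.661). The summed leukocyte level was 20967 to 38087 CPM in tumours (median 26076) and 22530 to 43243 CPM in normal mucosa (median 27391), with wide overlap. The erythrocyte miR-451 had 536 to 1911 CPM in tumours (median 988) and 491 to 1220 CPM in normal mucosa (median 686), or 0.39 ± 0.26 (adjusted p = 0.377). The inflammation-linked miR-146b fell by 0.90 (SE 0.20), a call lost with cartridge 3 as a term (adjusted p = 0.0981), and miR-146a, of the same seed, was at 0.02. The miR-720 probe, which detects a transfer RNA fragment, held 18.4 to 27.4% of miRNA counts in tumours and 14.2 to 34.6% in normal mucosa.

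Seeds were compared only among probes with a RefSeq mature sequence, at most 303, so that probes such as miR-135b are not in these counts. Within them 26 seeds were shared by 2 or more tested probes, and 3 of these seeds held calls in both directions. miR-99a had 1628 to 2325 CPM in tumours (median 2177) and 924 to 1815 CPM in normal mucosa (median 1528), or 0.49 ± 0.16 (adjusted p = 0.0269). miR-100, 1 base apart, had 321 to 535 CPM in tumours (median 454) and 612 to 897 CPM in normal mucosa (median 714), or -0.67 ± 0.15 (adjusted p = 0.000836). The groups overlapped for miR-99a, whose call was lost under 10 alternatives, and not for miR-100, and the third member, miR-99b, was at 0.12 ± 0.16. miR-125a-5p had 3163 to 5215 CPM in tumours (median 4220) and 2162 to 3369 CPM in normal mucosa (median 3067), or 0.51 ± 0.13 (adjusted p = 0.00271), opposite to miR-125b-5p. miR-99a and miR-100 act on the mTOR pathway, and miR-125a and miR-125b are the mammalian relatives of the worm's lin-4. miR-130b had 505 to 729 CPM in tumours (median 602) and 264 to 471 CPM in normal mucosa (median 421), or 0.57 ± 0.14. miR-130a had 1863 to 3228 CPM in tumours (median 2583) and 3856 to 4774 CPM in normal mucosa (median 4069), or -0.73 ± 0.13. Neither of these 2 overlapped between groups, and the call on miR-130b was lost within cartridge 2 (adjusted p = 0.104). miR-301b, on the list of the same family, was also called higher (0.64), on a probe not above background by median. Its call was lost within cartridge 2 too (adjusted p = 0.0584).

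The log2 ratio of the 2 probes within a library does not depend on how libraries are scaled. For miR-99a over miR-100 it was 1.93 to 2.85 in tumours (median 2.09) and 0.04 to 1.56 in normal mucosa (median 1.10). For miR-125a-5p over miR-125b-5p it was -1.80 to -1.47 in tumours (median -1.72) and -3.25 to -2.78 in normal mucosa (median -3.04). For miR-130b over miR-130a it was -2.37 to -1.66 in tumours (median -2.10) and -3.89 to -3.03 in normal mucosa (median -3.47). In all 3 pairs each tumour lay above each normal sample. The pairs were picked for their opposite calls, so no test is given. With mRNA scaling the higher members were at 0.01 for miR-99a, 0.01 for miR-125a-5p and 0.11 for miR-130b and did not pass, while the lower members still passed. Other seeds moved one way: 4 of 4 probes of the miR-17 seed and 2 of 2 of the miR-19 seed rose, and 2 of 2 of the miR-26 seed fell (miR-26b by 0.46 and miR-26a by 1.03 on the log2 scale, adjusted p = 0.0246 and 0.0489). Of measured miRNAs 15.3% were called higher and 21.8% lower. The call on miR-26a was lost under 16 alternatives, among them each tumour left out in turn, and that on miR-26b under 8.

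**Figure D4:**
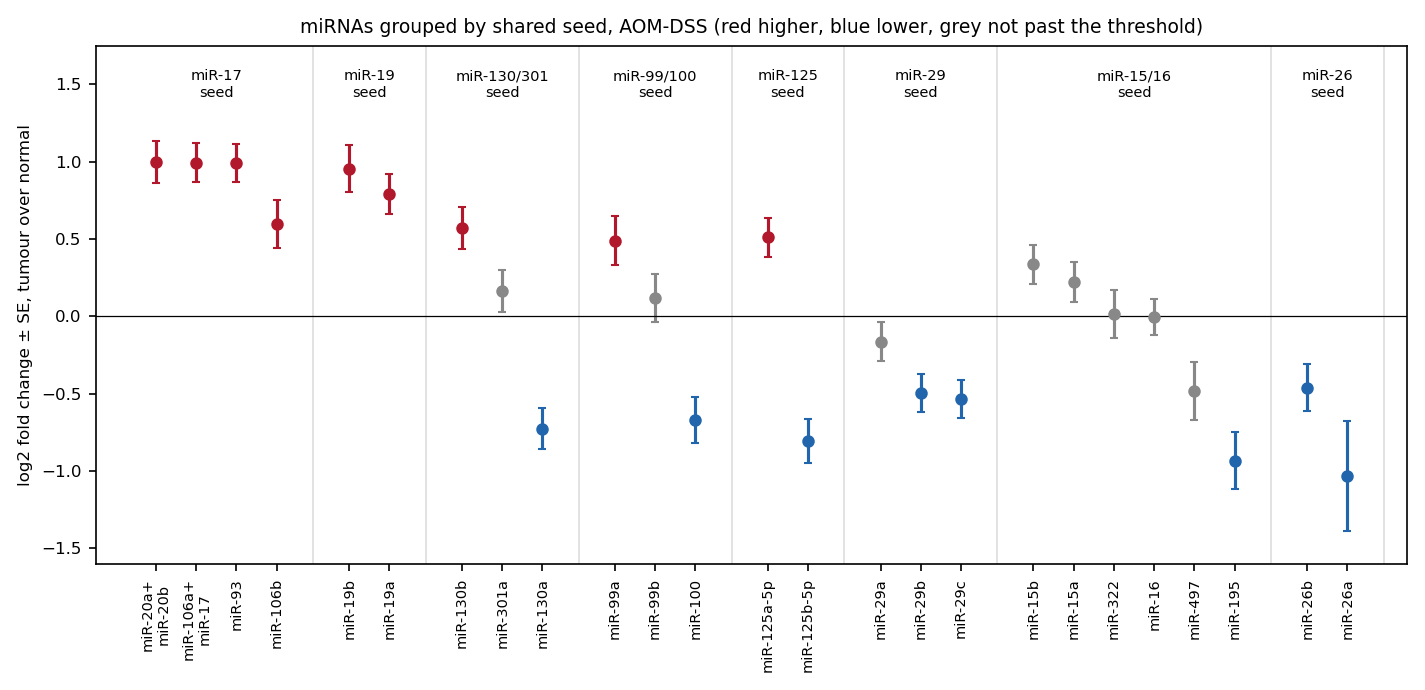
Log2 fold change, tumour over normal, with its SE (bars) for miRNAs grouped by shared seed; red is higher, blue lower and grey not past the threshold. miR-99a and miR-100, miR-125a-5p and miR-125b-5p, and miR-130b and miR-130a stand on opposite sides of 0, whereas the 4 probes of the miR-17 seed lie between 0.59 and 1.00.

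Cartridge and scale were checked beside these results. Between the 4 tumours of cartridge 3 and the 2 of cartridge 2, 0 of 563 miRNAs passed in edgeR (0%), with 34 at an unadjusted p under 0.05, and 0 passed in DESeq2, with 28. So few tumours can miss real differences, so these 0 calls cannot show that the cartridges were alike. Within cartridge 2, 79 of 564 miRNAs were called (14%), among them 30 of the 48 higher and 34 of the 48 lower calls, and all 96 kept their sign there. That fit shares tumours 1 and 2 and all normal samples with the main one, so agreement in sign is partly built in. With cartridge 3 as a term 60 of 563 were called (10.7%). Of the 33 viral probes 0 passed (edgeR, 1 at an unadjusted p under 0.05), with log2 fold changes from -0.28 to 0.51. Of the 4 mRNA probes, 3 were higher in tumours relative to the miRNA total. Rpl19, a ribosomal protein, had 6938 ± 1523 CPM in tumours and 3604 ± 415 CPM in normal mucosa (SD, n = 6 and 7), an adjusted p of 0.00233 in a two-sided exact permutation test. The log2 difference was 0.58 for Actb and 0.55 for Gapdh (adjusted exact p = 0.00466 and 0.00233), and for B2m it was -0.08 (exact p = 0.569).

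The tumour effect differed between AOM-DSS and APC tumours in 38 of 563 miRNAs (6.75%) by the test of the difference itself. miR-9 was lower by 1.46 in AOM-DSS tumours and at 0.27 ± 0.19 in APC tumours, a difference of -1.73 ± 0.28 (adjusted p = 4.9e-05). miR-100 (difference -1.03 ± 0.21), miR-125b-5p (-0.998 ± 0.21) and the mirtron miR-1224 (-1.15 ± 0.23) likewise fell in AOM-DSS tumours, whereas none of the 3 passed in APC tumours. The rise of miR-31 was smaller in AOM-DSS tumours, at 3.27 ± 0.26 against 4.70 ± 0.29 in APC tumours, and so was that of miR-135b, at 2.07 ± 0.19 against 3.07 ± 0.20 (adjusted p of the difference = 0.0162 and 0.0262). The falls of miR-145, miR-143 and miR-378 were also smaller in AOM-DSS tumours, by 1.41, 1.36 and 1.49 on the log2 scale. miR-18a rose by 1.13 ± 0.16 in AOM-DSS tumours and was at 0.28 ± 0.17 in APC tumours (adjusted p of the difference = 0.0232). The 38 differences were 22 positive and 16 negative, and with mRNA scaling 2 positive and 31 negative passed, so that those of miR-145 (0.87, adjusted p = 0.179), miR-143 (0.81, adjusted p = 0.25) and miR-18a (0.26, adjusted p = 0.658) did not, whereas that of miR-378 did (1.04, adjusted p = 0.0173). All APC libraries ran on cartridge 1, so beyond the tumour effect inside each cartridge, model and cartridge cannot be told apart. With the effects taken inside cartridges 1 and 2, 17 of 565 differences passed, among them those of miR-9, miR-100, miR-125b-5p, miR-1224 and miR-378. Those of miR-31 (-1.39, adjusted p = 0.0848), miR-135b (adjusted p = 0.132), miR-145 (0.90, adjusted p = 0.12), miR-143 (0.80, adjusted p = 0.176) and miR-18a (0.68, adjusted p = 0.176) did not.

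**Figure D5:**
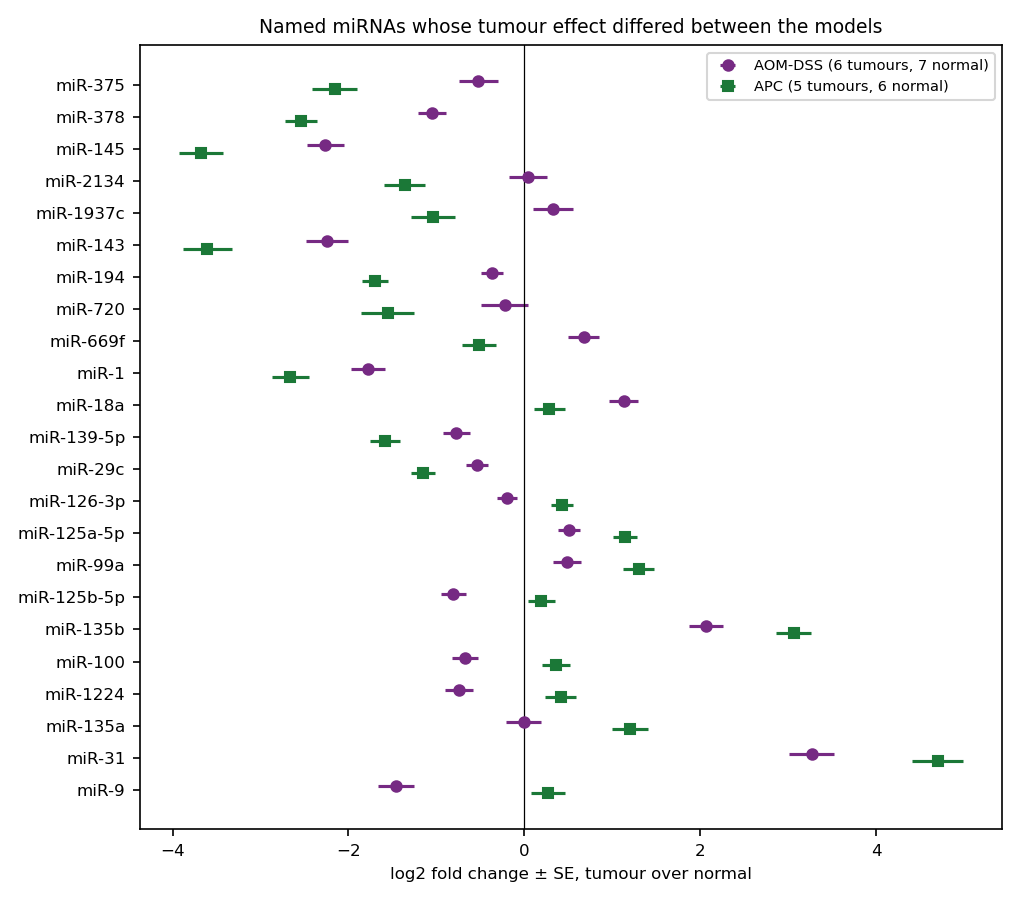
Log2 fold change, tumour over normal, with SE (bars) for the 23 measured, named miRNAs whose tumour effect differed between models, AOM-DSS as purple circles and APC as green squares. miR-9 lies at -1.46 in AOM-DSS and 0.27 in APC tumours, and miR-31 lies furthest to the right in both.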

How the data were processed

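The authors deposited raw counts per probe of 24 libraries. A table of scaled signal, which the authors deposited too, holds each raw count times 1 factor per library, with 0 set to 1 in 33 of 14376 values. The sources used here give neither the basis of that factor nor the software. Per the file headers, libraries ran on 3 cartridges, and the headers name each column's group. Library numbers come from the identity of raw and scaled columns, within a relative tolerance of 1e-06, which settled all 24, and 6 also matched by name. Per the labels' protocols, RNA at 33 ng/ul was prepared after NanoString's protocol. No 2 libraries were copies: between libraries of 1 group, chi-square per degree of freedom was 4.06 or more.

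The main test ran in edgeR 4.0.16 under R 4.3.3 (filterByExpr with a minimum count of 10 and total of 15, TMM, robust quasi-likelihood fit over 4 groups), tested on simulated data. The filter kept 563 of 566 miRNAs, and SE is the absolute log2 fold change over the square root of F. The APC libraries enter the AOM-DSS comparison through the shared spread, the filter and the TMM scaling. With the AOM-DSS libraries alone 532 miRNAs were tested and 112 called, 52 higher and 60 lower. All adjusted p-values of single miRNAs are from edgeR after Benjamini and Hochberg over 563 miRNAs unless another test is named. CPM divide a raw count by the mouse miRNA total times the TMM factor, so they need not sum to 1000000. "At least N-fold" replaces the values of a group at background in all its libraries by the background. Alternatives used DESeq2 1.42.0, limma 3.58.1 (voom; also log2 of the authors' values with a pseudocount of 1), other scalings, filters, cartridge and replicate settings. RefSeq gave a mature sequence for 303 probes.

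miRNAs are named by rule: miR-135b, miR-135a and miR-21; the 20 largest rises and falls among measured calls; the 10 most abundant per group; list members past the threshold, otherwise up to 3 with the smallest p; and the 5 largest differences between models each way. Members named beyond it (such as miR-141, miR-142-3p, miR-193b and most single members given as not past the threshold) were chosen after their values were seen. The members and lists were chosen with earlier results of these data known.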

Additional observations from a re-analysis of the deposited data

Results flagged for a closer look

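Of 212 groups of values examined for a library far from the rest of its group, 15 held one, and chance gives about 1 in 20. Normal library 7 had 47235 mouse miRNA counts, against a median of 303394 over normal mucosa, and its CPM stood apart for miR-137 (844, median 487), miR-146b (106, median 349), miR-365 (1531, median 2159), miR-376b (792, median 339), miR-434-3p (449, median 255) and miR-487b (237, median 107). Without normal library 7, 99 miRNAs were called in place of 96. Tumour 3 stood apart for miR-205 (8005 CPM, median 3524) and miR-18a (614, median 387), tumour 1 for miR-135a (297, median 196), and tumour 6 for the probe of miR-181b and miR-181d (219, median 300). Normal library 6 stood apart for miR-2134 (549 CPM, median 266) and miR-382 (276, median 164), normal library 4 for miR-144 (466, median 242) and normal library 3 for miR-669f (214, median 116).

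The tumour effect of 25 named miRNAs differed between the models by the test of the difference, given as AOM-DSS minus APC on the log2 scale. Beside miR-9 (-1.73), miR-31 (-1.43), miR-1224 (-1.15), miR-100 (-1.03), miR-125b-5p (-0.998) and miR-135b (-0.9997), it was negative for miR-135a (-1.21), miR-99a (-0.81), miR-125a-5p (-0.64) and miR-126-3p (-0.63). It was positive for miR-375 (1.63), miR-378 (1.49), miR-145 (1.41), miR-2134 (1.40), miR-1937c (1.36), miR-143 (1.36), miR-194 (1.33), miR-720 (1.33), miR-669f (1.19), miR-486 (1.04), miR-449b (1.02), miR-1 (0.88), miR-18a (0.85), miR-139-5p (0.81) and miR-29c (0.62). miR-449b and miR-486 were not above background by median in AOM-DSS tissue.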

How the results depend on the processing

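Called miRNAs numbered 80 to 134 under the alternatives other than the cartridge settings and left-out libraries, 79 within cartridge 2 and 60 with cartridge 3 as a term (28 lower). Leaving out 1 library gave 78 (without tumour 1) to 100 (without normal library 6) calls, 36 to 50 higher and 42 to 52 lower. Scaling to the 100 most abundant miRNAs gave 109 higher and 25 lower, scaling to the mRNA probes 10 and 111, and no filter on low counts 31 higher and 65 lower; how many are called in each direction therefore depends on the scale. miR-429 turned to -0.08 with mRNA scaling (adjusted p = 0.773), the 1 reversal among 2771 values of 101 named miRNAs. Each was run under 13 to 28 alternatives, fewer than 28 where a filter left the miRNA out. A change of sign counted as a reversal only where the miRNA passed in the main test or under the alternative. Signs also changed without a pass. With mRNA scaling let-7i went from 0.25 to -0.25. With scaling to the 100 most abundant miRNAs miR-21 went from -0.03 to 0.23. Of the 78 named and called, 28 passed under every alternative that could be run for them (27 or 28). With mRNA scaling 4 viral probes were called lower. The difference between models gave 31 to 43 calls with a library left out, 42 with DESeq2, 33 with mRNA scaling (2 positive and 31 negative, against 22 and 16) and 17 within cartridges 1 and 2 (12 and 5). The replicate block gave 117 calls, 94 of them shared with the 96. Correlations of same-numbered deviations were -0.23 to 0.23. Numbers 3 and 6 correlated best with their own number (0.18 and 0.23), and numbers 1, 2, 4 and 5 with another. Such few and weak values cannot decide whether the numbers pair the samples. Signal over background limits the low end: 361 tested miRNAs were not above it by median.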

Other observations

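The Sfmbt2 intron cluster, a rodent-specific miRNA array, had 3 higher and 0 lower calls among 33 tested probes (median log2 fold change 0.29), a share near the 8.53% of all miRNAs called higher. Among 23 probes of the X-linked testis clusters, 3 were higher and 0 lower (median 0.29), beside the same 8.53% of all miRNAs, 2 of the 23 being measured above background. The embryonic stem cell clusters gave 0 calls among 16 probes in edgeR (3 at an unadjusted p under 0.05) and 0 in DESeq2 or limma-voom, with a median of 0.33 and no measured member, beside a median of 0.07 over all miRNAs and 0.03 over the viral probes.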
